A study of Homo sapiens with 6 samples.

Results

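The genes described here are 10 antiviral restriction factors: the MX GTPases MX1 and MX2, the interferon-induced transmembrane proteins IFITM1, IFITM2 and IFITM3, and BST2, RSAD2, SAMD9, SAMD9L and XAF1. They were taken as a list of named symbols, with no measured value in the rule. The list was nevertheless chosen with earlier results of these data known. Each symbol was matched to its Ensembl identifier, giving 10 of the 63677 genes in the table of read counts. All 10 had more than 10 counts over the 6 samples and entered the test. RNA was measured in UWB1.289, 1 human ovarian carcinoma cell line that the study describes as BRCA1-deficient and whose genotype field in the sample labels reads WT. The Olaparib group held 3 samples collected 24 h after addition of Olaparib, an inhibitor of the poly(ADP-ribose) polymerases PARP1 and PARP2, and the DMSO group held 3 samples given the solvent alone for 24 h. The sample labels give the Olaparib dose as 4 µM, whereas the series' own description gives 10 µM. The study describes the replicates as independent, and no other line was measured, so p-values refer to replicates of this line only. The edgeR test used here estimates a gene's spread partly from the other genes. Its p-values and intervals therefore do not rest on that gene's replicates alone.

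Restriction factors are proteins that cells make to block single steps of viral infection. Type I and type III interferons bind their receptors and activate a complex that holds STAT2 and IRF9 and binds the interferon-stimulated response element (ISRE) in the promoters of these genes. Most of the members therefore rise together when a cell meets interferon, and several are expressed at a lower level without it. MX1 and MX2 are dynamin-like GTPases that trap viral nucleocapsids, the IFITM proteins hinder fusion of viral and host membranes, and BST2 (tetherin) holds budding particles at the cell surface. RSAD2 (viperin) makes a chain-terminating nucleotide from CTP, SAMD9 and its neighbour SAMD9L restrict poxviruses and translation, and XAF1 binds the apoptosis inhibitor XIAP.

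The letters of the promoters are shown first because ISRE-like letters recur in the windows of several members, though not of all. RefSeq windows (GRCh38.p14) from 250 bases before to 50 bases after a transcription start were at hand for 8 of the 10 members, in 12 windows, with no window for MX2 and IFITM2. GAAANNGAAA, the core of the ISRE, was searched on both strands and lay in a window of 6 members (MX1, IFITM1, IFITM3, BST2, RSAD2 and SAMD9), beside 4.38% of all 27305 genes with a window (3.57% of 35116 windows). Each stretch below has the match in capitals and 10 bases on either side and is written 5′ to 3′ on the strand of its gene. Distances here and below run from the start to the first base of the match as written. The nearer match of IFITM1 therefore begins before the start and runs over it. For RSAD2 the match is on the opposite strand, so the capitals read as its reverse complement. A further match before another alternative start of MX1 and a second copy in BST2, which overlaps the one shown, are left out.
MX1, chr21:41420559-41420588, plus strand, 11 bases after an alternative start: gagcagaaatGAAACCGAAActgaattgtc
IFITM1, chr11:314024-314053, plus strand, 6 bases before the start: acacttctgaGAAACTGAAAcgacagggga
IFITM1, chr11:313990-314019, plus strand, 40 bases before the start: caaacagcagGAAATAGAAActtaagagaa
IFITM3, chr11:320876-320905, minus strand, 35 bases before the start: aaactgttgaGAAACCGAAActactgggga
IFITM3, chr11:320893-320922, minus strand, 52 bases before the start: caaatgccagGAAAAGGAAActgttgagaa
BST2, chr19:17405741-17405770, minus strand, 130 bases before the start: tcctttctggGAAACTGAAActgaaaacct
RSAD2, chr2:6877622-6877651, plus strand, 145 bases before the start: ctgtttcaacTTTCAGTTTCacatgtggaa
SAMD9, chr7:93118096-93118125, minus strand, 136 bases before the start: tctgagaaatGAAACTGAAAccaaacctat

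A second arrangement with 1 base in the gap, GAAANGAAA, was added after the sequences had been seen, and lay in windows of 4 members (MX1, RSAD2, SAMD9 and XAF1) beside 3.87% of all genes with a window. It overlaps the ISRE core at MX1 and SAMD9. RSAD2 carried it 4 times before its upstream, alternative start, of which the outermost copy is shown. XAF1 carried it once, in a match that begins just before its start and runs over it. MX1 carried it on the opposite strand before its main start.
MX1, chr21:41426116-41426144, plus strand, 113 bases before the start: aggagctaggTTTCGTTTCtgcgcccgga
RSAD2, chr2:6865723-6865751, plus strand, 152 bases before the alternative start: ccccgcctcgGAAACGAAAcctggcggga
XAF1, chr17:6756031-6756059, plus strand, 5 bases before the start: ttgcctgcaaGAAACGAAActcaaccgaa

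SAMD9L held neither arrangement in its window. The letters of a GAS element, TTCNNNGAA, a motif known from the response to interferon-gamma, lay in windows of 3 members (MX1, IFITM1 and BST2), beside 9.38% of all genes with a window. Such matches describe letters and not bound sites, and the absence of a match describes only the window searched.

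After Olaparib, 4 of the 10 members rose and none fell. MX1 rose about 2-fold, with a fitted fold of 2.07, and RSAD2 and XAF1 rose 1.82-fold and 1.80-fold. SAMD9L rose 1.33-fold. The most abundant members, BST2 and IFITM3, had fitted folds of 1.04 and 1.07 and did not pass the test, nor did IFITM1, IFITM2, MX2 or SAMD9. A gene counted as changed where edgeR's quasi-likelihood test gave a p under 0.05 once adjusted, by the Benjamini-Hochberg method, over all 21729 genes tested. By that rule 467 genes (2.15%) rose and 263 (1.21%) fell. All 4 members also exceeded a 1.2-fold change, a rule that 157 genes (0.723%) met upwards. The median log2 fold change over the 10 members was 0.30, with 9 values above 0 and 1 below, and the median over all genes tested was -0.0042. Without Olaparib replicate 3 only 2 members, MX1 and XAF1, passed the test, and without Olaparib replicate 1 the count was 6. The samples were bulk cell pellets, in which a change in the share of cells carrying a transcript and a change in RNA per cell cannot be told apart.

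**Figure D1:**
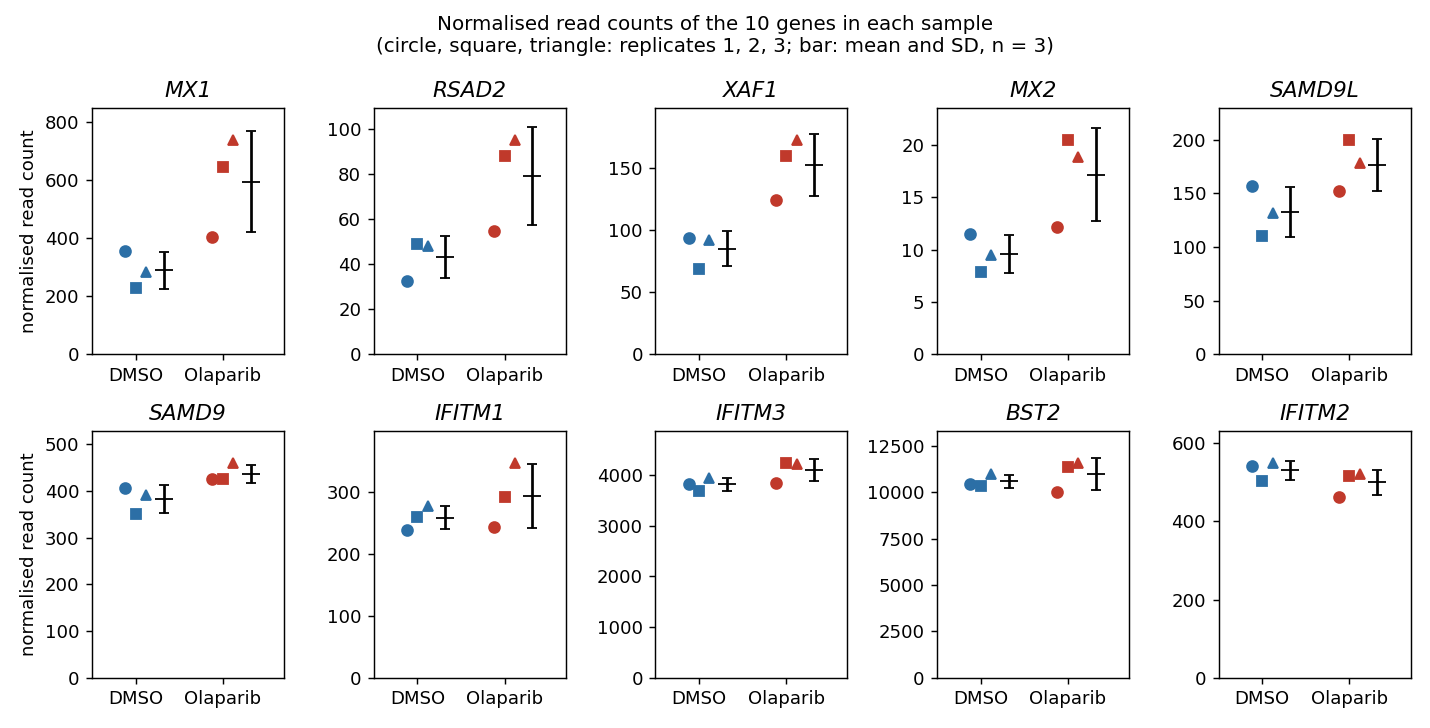
Normalised read count (y axis, each panel from 0) of each of the 10 genes in the 3 DMSO samples (blue) and the 3 Olaparib samples (red), with circles, squares and triangles for replicates 1, 2 and 3 and bars for the mean and SD (n = 3). In MX1, MX2, RSAD2, SAMD9 and XAF1 all Olaparib points lie above all DMSO points, while the groups overlap in the other 5 genes.

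MX1 (ENSG00000157601, GRCh38, chr21:41420020-41470071, plus strand) is a cytoplasmic GTPase that acts against influenza and other viruses. Its normalised read counts were 403, 644 and 740 in Olaparib replicates 1, 2 and 3 and 354, 228 and 284 in DMSO replicates 1, 2 and 3. The mean was 596 ± 174 (SD, n = 3) after Olaparib and 289 ± 63.1 (SD, n = 3) in DMSO. The lowest Olaparib sample lay just above the highest DMSO sample, and the other Olaparib samples stood well apart. The log2 fold change was 1.05 (SE 0.127, 95% interval 0.79 to 1.31), the largest of the 10 members, with an adjusted p of 1.2e-06 by edgeR's quasi-likelihood test. It stayed between 0.86 and 1.27 when any 1 sample was left out. With DESeq2 in place of edgeR the log2 fold change was 1.04, and the adjusted p was weaker, at 0.0266.

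MX2 (ENSG00000183486, chr21:41361999-41409393, plus strand) lies next to MX1 and encodes the nuclear-envelope relative that restricts HIV-1. It was the scarcest member, with 80 counts in all. Normalised counts were 12.1, 20.5 and 18.9 after Olaparib and 11.5, 7.84 and 9.48 in DMSO, with means of 17.2 ± 4.44 and 9.61 ± 1.83 (SD, n = 3). All Olaparib samples were above all DMSO samples, by a narrow margin in replicate 1. The fitted log2 difference was 0.84 with an SE of 0.335 and a 95% interval of 0.15 to 1.52, and the adjusted p of 0.196 in edgeR's quasi-likelihood test did not pass. The interval covers the change of MX1, and at this depth a smaller change could not be told from one of that size.

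RSAD2 (ENSG00000134321, chr2:6865557-6898239, plus strand) was measured at 54.7, 88.2 and 95.4 normalised counts after Olaparib and at 32.4, 49.0 and 48.3 in DMSO. Means were 79.4 ± 21.8 and 43.3 ± 9.40 (SD, n = 3), and the groups did not overlap. Unlike MX1, its lowest DMSO sample was replicate 1. The log2 fold change was 0.87 (SE 0.188, 95% interval 0.49 to 1.25) with an adjusted p of 0.00477 by edgeR's quasi-likelihood test. The call was lost without DMSO replicate 1 (log2 fold change 0.71, adjusted p 0.0579) and without Olaparib replicate 3 (0.71, adjusted p 0.0635). CMPK2, a mitochondrial nucleotide kinase gene that is divergent from RSAD2 and shares 351 exonic bases with it on the opposite strand, rose as well, from 128 ± 14.5 to 175 ± 24.7 (SD, n = 3), with a log2 fold change of 0.46 (SE 0.114, adjusted p 0.0142 by edgeR's quasi-likelihood test). The shared bases are 6.20% of the exonic bases of RSAD2, and the strand setting of the counting is not given in the sources used here.

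XAF1 (ENSG00000132530, chr17:6755447-6775647, plus strand) is a pro-apoptotic zinc-finger gene known to respond to interferon. Its normalised counts were 124, 160 and 173 after Olaparib and 94.1, 68.6 and 92.0 in DMSO. The lowest Olaparib value was clear of the highest DMSO value. The means were 152 ± 25.1 and 84.9 ± 14.1 (SD, n = 3), the log2 fold change was 0.85 (SE 0.133, 95% interval 0.58 to 1.12) and the adjusted p was 8.7e-05 by edgeR's quasi-likelihood test. XAF1 and MX1 were the members that passed under every other test, filter and scaling and with each sample left out. XIAP, the protein partner from which XAF1 takes its name, had 3507 ± 79.4 and 3714 ± 135 normalised counts (SD, n = 3) and a log2 difference of -0.08 (adjusted p 0.273, edgeR's quasi-likelihood test). An antisense locus, PRAL, covers 38.3% of the exonic bases of XAF1 and has no row in the table, so reads of both strands could be mixed there.

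SAMD9 and SAMD9L are neighbouring genes on chromosome 7, read from the same strand, whose products limit translation in infected cells. SAMD9L (ENSG00000177409, chr7:93130056-93148385, minus strand) had 152, 200 and 178 normalised counts after Olaparib and 157, 110 and 132 in DMSO. DMSO replicate 1 lay above Olaparib replicate 1, so the groups overlapped although the fit passed the threshold. The means were 177 ± 24.1 and 133 ± 23.5 (SD, n = 3), and the log2 fold change was 0.41 (SE 0.118, 95% interval 0.17 to 0.65) with an adjusted p of 0.0428 by edgeR's quasi-likelihood test. The call was lost under 8 of 13 alternatives, among them DESeq2 and leaving out DMSO replicate 2, DMSO replicate 3, Olaparib replicate 2 or Olaparib replicate 3, with an adjusted p of up to 0.299. SAMD9 (ENSG00000205413, chr7:93099513-93118023, minus strand) had 425, 425 and 459 normalised counts after Olaparib and 407, 350 and 391 in DMSO. All of its Olaparib samples were above all DMSO samples. The means were 436 ± 19.9 and 382 ± 29.2 (SD, n = 3), and the log2 difference of 0.19 (SE 0.065, 95% interval 0.06 to 0.32, adjusted p 0.109, edgeR's quasi-likelihood test) missed the threshold.

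The 3 IFITM genes stand within a short stretch of chromosome 11 and encode small membrane proteins, IFITM1 mainly at the cell surface and IFITM2 and IFITM3 mainly in endosomes. IFITM1 (ENSG00000185885, chr11:310041-315272, plus strand) had 243, 292 and 347 normalised counts after Olaparib and 239, 260 and 278 in DMSO. Olaparib replicate 1 lay at the level of the lowest DMSO sample, and Olaparib replicate 3 was the highest of all 6. The log2 difference was 0.18 with an SE of 0.092, a 95% interval of -0.01 to 0.37 and an adjusted p of 0.358 in edgeR's quasi-likelihood test. IFITM2 (ENSG00000185201, chr11:303655-309397, plus strand) was at 464, 516 and 520 after Olaparib and at 541, 503 and 549 in DMSO. It was the only member with a fitted difference below 0, -0.09 (SE 0.058, 95% interval -0.21 to 0.03, adjusted p 0.532, edgeR's quasi-likelihood test), and its groups overlapped. IFITM3 (ENSG00000142089, chr11:319676-329475, minus strand) was at 3844, 4238 and 4222 after Olaparib and at 3817, 3694 and 3951 in DMSO. Olaparib replicate 1 lay within the DMSO range and the other Olaparib samples lay above it. The log2 difference of 0.10 (SE 0.039, 95% interval 0.02 to 0.18) had an adjusted p of 0.167 by edgeR's quasi-likelihood test and passed without Olaparib replicate 1 (0.15, adjusted p 0.0189). The 3 genes share sequence with each other, with pseudogenes and with a readthrough gene that covers 351 exonic bases of IFITM1 on the same strand. Of all 50-base words in the MANE Select transcript, 55.1% for IFITM1, 12.0% for IFITM2 and 20.8% for IFITM3 also occurred in transcripts of any of these, so their counts are uncertain.

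BST2 (ENSG00000130303, chr19:17402939-17405630, minus strand) had the most counts of the 10 members. Normalised counts were 9995, 11366 and 11564 after Olaparib and 10458, 10307 and 10968 in DMSO. Olaparib replicate 1 was the lowest of all 6 samples, and replicates 2 and 3 were the highest. The means were 10975 ± 855 and 10578 ± 346 (SD, n = 3), with a log2 difference of 0.05 (SE 0.037, 95% interval -0.02 to 0.13, adjusted p 0.555, edgeR's quasi-likelihood test). The interval reaches no further than 0.13, so a change of the size seen in MX1 lies outside it. Without Olaparib replicate 1 the log2 difference was 0.12, with an adjusted p of 0.0184.

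**Figure D2:**
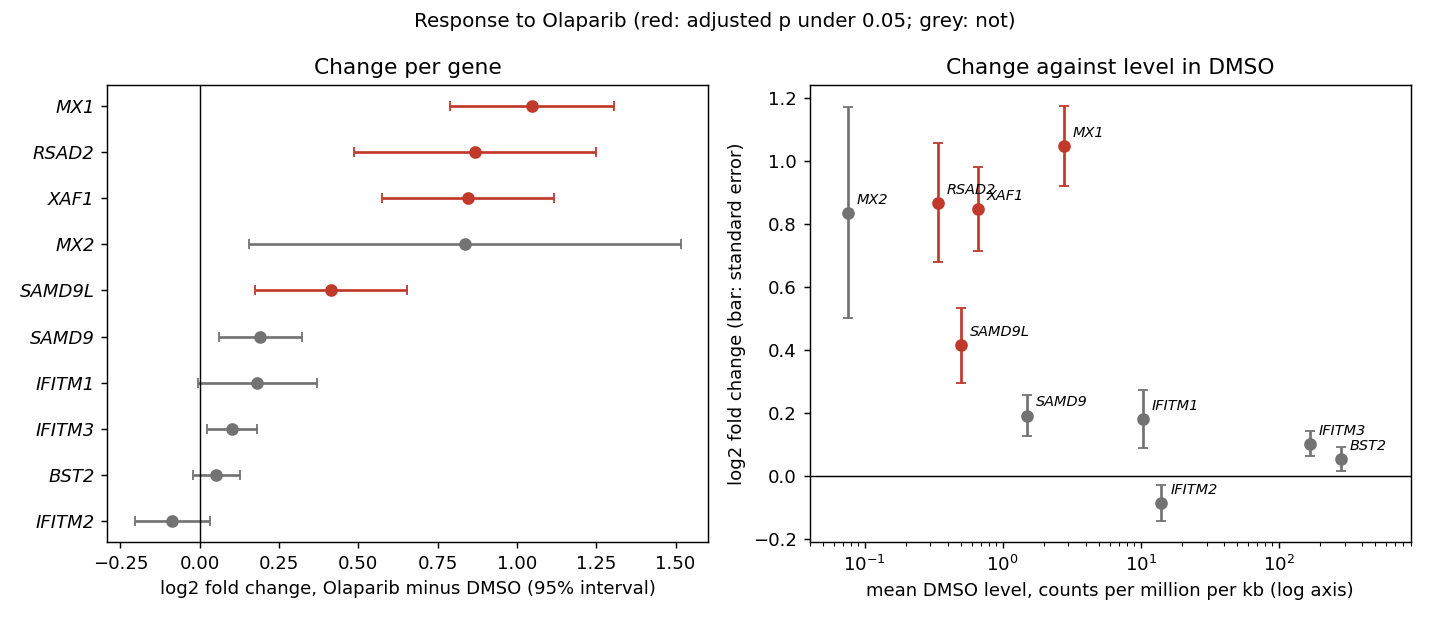
Left, log2 fold change of each member (x axis, Olaparib minus DMSO) with its 95% interval; right, the same change (y axis, bars are standard errors) against the mean DMSO level in CPM per kb (log x axis). Red marks the 4 members with an adjusted p under 0.05, and the 4 most abundant members lie between -0.09 and 0.18.

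Levels were compared between genes as counts scaled to library size (CPM) per kb of the MANE Select transcript. In DMSO, BST2 was the highest at 282 ± 9.25, followed by IFITM3 at 167 ± 5.63, IFITM2 at 14.1 ± 0.649 and IFITM1 at 10.4 ± 0.767 (SD, n = 3). MX1 was next at 2.78 ± 0.607, then SAMD9 with 1.37 to 1.60 in its 3 samples, XAF1 at 0.664 ± 0.110 and SAMD9L at 0.496 ± 0.0879. RSAD2 at 0.339 ± 0.0737 and MX2 at 0.0753 ± 0.0144 were the lowest. The members thus spanned a 3748-fold range of level before treatment, and XAF1 and SAMD9L were the only neighbours in this order whose DMSO samples overlapped. After Olaparib the order kept BST2 (293) and IFITM3 (179) at the top and MX2 (0.135) at the bottom, with MX1 at 5.73. IFITM1 overlapped IFITM2 there, and RSAD2 overlapped SAMD9L. With the length of all merged exons in place of the MANE Select transcript, the 4 most abundant members kept their order and MX1 moved from the fifth to the seventh place, below SAMD9L. The 4 most abundant members had log2 fold changes of -0.09 to 0.18 and the 6 less abundant members 0.19 to 1.05, which is given as a description.

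Related genes were also compared by the log2 ratio of their counts within each sample, which does not depend on library size. The ratio of MX1 to MX2 was 5.05, 4.97 and 5.29 after Olaparib and 4.95, 4.86 and 4.91 in DMSO, a difference of 0.20. The ratio of IFITM2 to IFITM3 was -3.05, -3.04 and -3.02 after Olaparib and -2.82, -2.88 and -2.85 in DMSO, a difference of -0.19. In both pairs the groups did not overlap. The same was true of IFITM1 to IFITM2, which differed by 0.26, so IFITM2 was low after Olaparib relative to both of its relatives, although its groups overlapped when taken alone. SAMD9 to SAMD9L differed by -0.23 and IFITM1 to IFITM3 by 0.07, and the groups overlapped in both. In a two-sided exact permutation test the 3 separate pairs had p = 0.1, the smallest value that 3 against 3 samples allow, and 0.167 after adjustment over the 5 pairs. The difference of MX1 to MX2 was 0.11 without Olaparib replicate 3 and 0.31 with a prior count of 2, that of IFITM1 to IFITM2 was 0.16 without Olaparib replicate 3, and that of SAMD9 to SAMD9L was -0.11 without Olaparib replicate 2. SAMD9 to SAMD9L had an exact p of 0.2 (adjusted 0.25) and IFITM1 to IFITM3 an exact p of 0.8 (adjusted 0.8), and no pair could pass a threshold of 0.05 in this design.

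**Figure D3:**
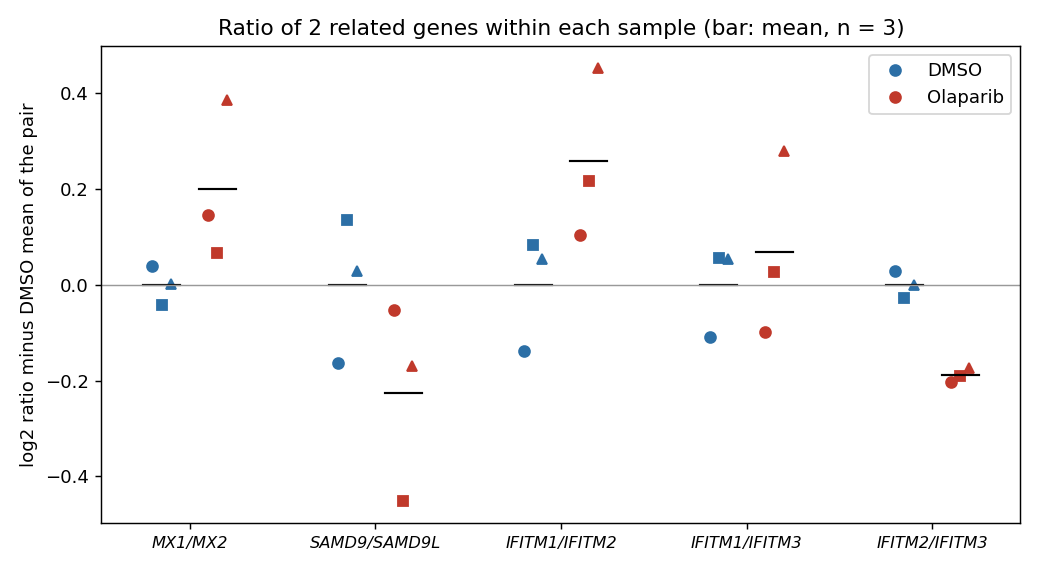
Log2 ratio of the read counts of 2 related genes within each sample, minus the DMSO mean of that pair (y axis), for 5 pairs (x axis), with blue for DMSO, red for Olaparib and bars for means (n = 3). Olaparib samples lie above DMSO for MX1/MX2 and IFITM1/IFITM2 and below for IFITM2/IFITM3, and overlap in the other pairs.

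The members did not move evenly across the treated samples. Olaparib replicate 1 was the lowest of the 3 treated samples in 9 of the 10 members, beside 24 of 40 other antiviral effector genes and 34.9% of all genes tested. Olaparib replicate 3 was the highest in 7 of the 10 members, beside 24 of the 40 other antiviral effector genes and 27.9% of all genes tested. Among controls, DMSO replicate 2 was the lowest in 8 of 10 members, beside 21 of the 40 effector genes and 7241 of all 21729 genes tested. In 5 of the 10 members all Olaparib samples were above all DMSO samples, as was the case for 10.0% of all genes tested. Members measured in the same sample are not independent of each other, and what set Olaparib replicate 1 apart was not tested.

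**Figure D4:**
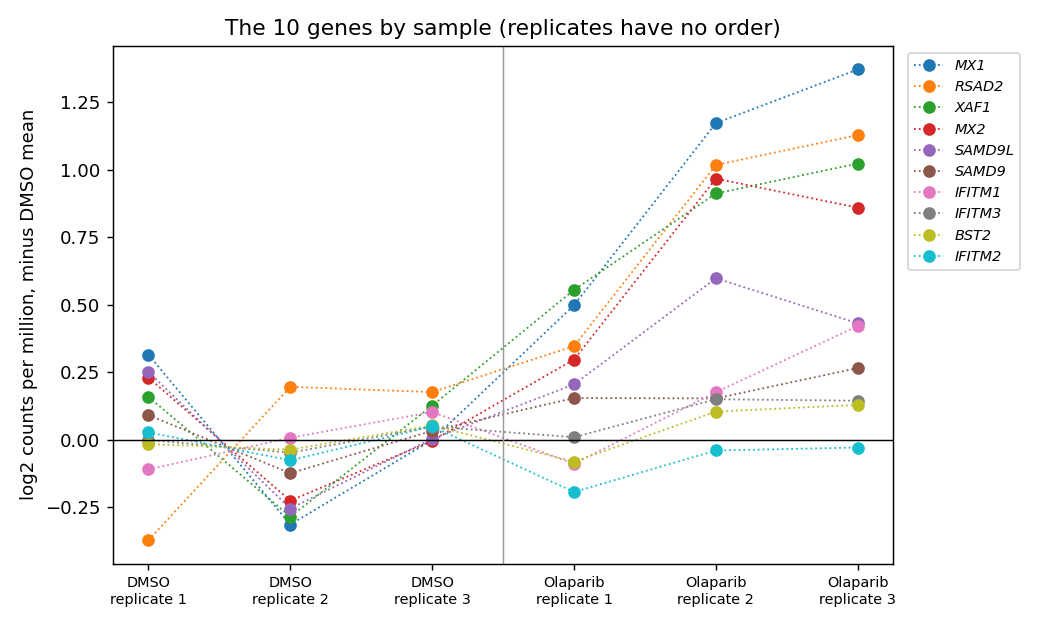
Log2 CPM of each member minus its DMSO mean (y axis) in each of the 6 samples (x axis); dotted lines only link the points of a gene, since replicates have no order. Olaparib replicate 1 is the lowest treated sample in 9 of 10 members, and MX1, RSAD2, XAF1 and MX2 lie highest in replicates 2 and 3.

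The signalling steps that precede these genes were read from the same fit. IRF7, which amplifies interferon production, rose from 617 ± 33.8 to 792 ± 84.4 normalised counts (SD, n = 3), with a log2 fold change of 0.36 and an adjusted p of 1.9e-04 by edgeR's quasi-likelihood test. None of the 17 tested ligands, receptors, kinases and factors of the interferon relay fell, beside 1.21% of all genes tested. The ISRE-binding partners STAT2 and IRF9 had log2 differences of 0.08 (adjusted p 0.399) and -0.09 (adjusted p 0.781) by edgeR's quasi-likelihood test. IFNB1, the interferon-beta gene, had 11 counts over all 6 samples, and IFNL1, IFNL2 and IFNL3, which encode type III interferons, had too few counts to be tested.

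Of 40 other antiviral effector genes, many of them interferon-induced and all tested, 17 rose and none fell. Over all genes tested, 2.15% rose and 1.21% fell. The list of effectors, too, was chosen with earlier results of these data known. The median log2 fold change of the 40 effectors was 0.20. The largest changes among those that passed were IFIT1 (1.04), IFI44L (1.02) and OAS2 (0.94), close in size to MX1. TRIM22, with 84 counts in all, had a larger log2 difference of 1.10 that did not pass (adjusted p 0.0738, edgeR's quasi-likelihood test). Of 8 tested relatives and protein partners of the members, CMPK2 alone passed, and IFITM5, a bone-specific relative, was at 0. The nearest tested protein-coding genes on either side of each member were also read, where they do not overlap that member's locus. CMPK2, which overlaps RSAD2, was therefore not among these neighbours. Members themselves aside, PGGHG next to IFITM2 fell by 0.30 on the log2 scale, with an adjusted p of 1.76e-06 by edgeR's quasi-likelihood test. No other of these neighbours passed. MVB12A, which begins 91 bases from BST2, had a log2 difference of 0.0068, and RIPK4 beyond MX1 had 0.20 (adjusted p 0.0574, edgeR's quasi-likelihood test).

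The genes whose pattern over the 6 samples was most like the median profile of the 9 members with a mean count of at least 50 were found among 13112 other genes by root mean square difference of log2 CPM from the DMSO mean. They were MT1M (0.0333), PLSCR1 (0.0385), HSH2D (0.0452), IFIH1 (0.0482) and CLMN (0.0523). MT1M is a metallothionein gene, PLSCR1 encodes a phospholipid scramblase and IFIH1 encodes the RNA sensor MDA5. PLSCR1 is also among the other antiviral effector genes counted above as having risen.

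Promoter letters and response were set side by side without a test. Of the 6 members with the ISRE core in a window, MX1 and RSAD2 rose, while IFITM1, IFITM3, BST2 and SAMD9 did not pass. XAF1 and SAMD9L rose without it, XAF1 having the arrangement with 1 base in the gap. Among all tested genes with a window, 35 of 515 that held the ISRE core rose (6.80%) and 309 of 12712 without it rose (2.43%).

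Total read counts per sample ranged from 35360458 to 39640775. Of the epithelial and ovarian carcinoma marker genes, EPCAM, KRT7, KRT8, KRT18, KRT19 and PAX8 were expressed, WT1 had at most 2 counts in any sample, and PAX8 alone of the 8 tested rose (log2 fold change 0.10, adjusted p 0.0399, edgeR's quasi-likelihood test). The summed normalised counts of leukocyte markers were 125 to 145 after Olaparib and 106 to 129 in DMSO, with none of the 4 tested genes passing. Fibroblast markers summed to 236 to 342 and 279 to 313, nearly all of it COL1A1 (log2 difference -0.11, adjusted p 0.642 by edgeR's quasi-likelihood test), with COL3A1, PDGFRB, DCN and LUM at or near 0. Endothelial markers summed to 1564 to 1613 and 1609 to 1723, nearly all of it CDH5, whose Olaparib samples all lay below the DMSO samples (log2 difference -0.07, adjusted p 0.442). PECAM1 was at 0 and VWF rose by 0.68 on the log2 scale (adjusted p 0.0106, edgeR's quasi-likelihood test). Their part in the members' values was not tested.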

How the data were processed

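The deposited values are raw read counts, which the authors made per gene and sample and left unscaled, for 6 samples. Per the labels and the study's methods, adapters were trimmed with Trimmomatic, reads were mapped to GRCh38 with STAR, and featureCounts assigned them to genes. Duplicates were marked with Picard, and neither their removal nor the strand setting is given in the sources used here. Multicopy and overlapping genes are thus uncertain where named.

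Genes with more than 10 counts in total were kept (21729) and scaled by edgeR's TMM method (factors 0.9946 to 1.013). Normalised counts are counts divided by the effective library size relative to its mean. The contrast of Olaparib minus DMSO was tested by quasi-likelihood in edgeR, p-values were adjusted by Benjamini-Hochberg, and intervals are at the 95% level. DESeq2, limma voom, size factors, upper quartile scaling, other count filters, fold thresholds, a replicate block and leaving out each sample were the alternatives, and the merged exon length was chosen after seeing the data. Versions used were edgeR 4.0.16, DESeq2 1.42.0 and limma 3.58.1 under R 4.3.3, and SciPy 1.17.1, pandas 2.3.3 and matplotlib 3.10.9 under Python 3.11.15. The test was checked on simulated counts.

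Gene names and loci came from GENCODE release 44, which held 81.95% of the identifiers and 96.03% of those past the filter. The design read all 10 members in every sample. From the lists of other antiviral effectors, of the interferon relay and of relatives and partners, the 3 largest passing changes were named, with members too scarce to test, STAT2, IRF9, IRF7, IFNB1, CMPK2 and XIAP. 1 gene that this rule covers is not reported here. The neighbours on either side, exonic overlap partners and the 5 genes of most similar profile were read too. TRIM22 was added, and RIPK4 and MVB12A were picked out among the neighbours, after their values were seen, as were the marker genes named. The members and lists were chosen with earlier results of these data known. Ratios of related genes were taken on the normalised counts, whose scaling cancels in a ratio within a sample. As an alternative, a prior count of 2 was added to the normalised counts. Replicates of a group differed by more than sampling noise (chi-square per degree of freedom 1.81 to 4.11), so each sample was counted once. Totals of 35360458 to 39640775 counts per sample set the precision. Intervals refer to these replicates of 1 line and use a spread that edgeR estimates partly from other genes.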

Additional observations from a re-analysis of the deposited data

How the results depend on the processing

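The direction of each member's log2 fold change was kept in all 128 refits of a member that gave an adjusted p. MX1 and XAF1 passed throughout these refits. The number of members that rose was 4, and became 2 with DESeq2 (which gave no adjusted p for 2 members, MX2 and RSAD2, at log2 fold changes of 0.84 and 0.87), 3 with limma voom, filterByExpr or upper quartile scaling, and 0 with a log2 fold change above 1.5 required. It ranged from 2 to 6 when 1 sample was left out. Over all genes, 730 changed, with 467 higher and 263 lower. Those totals became 262 (157 higher, 105 lower) with a 1.2-fold change required, DESeq2 gave 154 lower, and leaving out 1 sample gave 398 to 870 in all, 270 to 567 higher and 127 to 303 lower. Whether replicate numbers pair the samples was not settled. The deviations of same-numbered samples correlated at -0.15, 0.19 and -0.21, and those of unlike-numbered samples at -0.28 to 0.37. Deviations within a group sum to 0, which ties these correlations to each other, so they cannot decide on a pairing. With a replicate block 1322 genes changed, 805 higher and 517 lower, and 5 members rose, SAMD9 being added (adjusted p 0.0442, edgeR's quasi-likelihood test). The block changed no other member's call. The log2 ratio of IFITM1 to IFITM3 was 0.07 higher after Olaparib and ranged from -0.036 without Olaparib replicate 3 (exact permutation p 0.6) to 0.153 without Olaparib replicate 1. The cause of these changes was not tested. Per merged exon length, DMSO levels of 8 of the 10 members moved by more than 1 SD, that of IFITM3 to 35.9 and that of MX1 to 0.429 CPM per kb. Depth limits MX2, with 80 counts in all, most.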
